A study of Mus musculus with 8 samples.

Results

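The genes described here are 38 regulators and executors of apoptosis: the BCL2 family, caspases, inhibitors of caspases, the proteins that mitochondria release in dying cells and the death receptor pathway. They were taken from a list of gene symbols drawn up with earlier results of these data known, by a rule that sets no threshold on their values, and all 38 were found among the 37310 genes of the table. By their textbook roles, 24 of them promote apoptosis, 10 protect against it, and 4 (Bcl2l13, Casp1, Casp12 and Ripk1) were put on neither side. These sides were assigned and not tested in these embryos, and this holds for Bcl2l10 on the protective side too. Fertilized mouse eggs were cultured in G1 medium, either with an equal volume of the solvent DMSO (control, 4 libraries) or with triclocarban (TCC, an antibacterial compound of soaps) at 6 µM (4 libraries), and polyadenylated RNA of the 2-cell embryos was sequenced. No strain, genotype, hour of collection or number of embryos per library is given in the sources used here, and nothing says whether libraries of 1 group are separate cultures or animals; the p-values thus rest on the spread between libraries, and that spread may be technical. The comparison of the groups addressed how triclocarban affects the transition from maternal to embryonic transcripts, as the series title states it.

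In the intrinsic pathway of apoptosis, BH3-only proteins sense stress and engage the protective BCL2 proteins, which otherwise hold the effectors BAX and BAK in check. Open effectors let cytochrome c leave the mitochondria, APAF1 then assembles into the apoptosome, and initiator caspases activate executioner caspases. Death receptors start a second route through FADD and caspase-8, and the IAP proteins restrain caspases and death signalling. Mouse oocytes store transcripts of several of these genes, and at the 2-cell stage stored transcripts are cleared while the embryo's own genome is activated.

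Values are FPKM, in which the fragments of a gene are divided by its length and by the library's total, so they can be compared between genes but show a transcript's share of the library and not its amount per embryo. In such bulk RNA, fewer cells with a transcript and less of it per cell cannot be told apart. Genes reaching 1 FPKM numbered 12828 to 13541 in controls and 11788 to 11957 with triclocarban. Mitochondrial genes held 16.6, 17.6, 22.6 and 24.3% of the FPKM in controls 1 to 4 and 11.1, 17.6, 13.7 and 13.1% in triclocarban libraries 1 to 4. On the first principal component (69.1% of the variance) the groups lay apart, and controls 1 and 2 lay nearer to the treated libraries than controls 3 and 4. The summed FPKM of 11 oocyte-derived markers was 2640 to 6248 in controls, lowest in controls 3 and 4, and 7191 to 10794 with triclocarban. Btg4 and Oosp1 were the highest of them in every library and rose, while Zp3 fell. For 6 markers of the 2-cell stage the sum was 398.62 to 577 FPKM in controls and 219.54 to 717 FPKM with triclocarban. Among them Zscan4c and Zscan4f rose while Zfp352 and Eif1a fell (Eif1a from a mean of 49.0 to 5.19 FPKM). Of 13 cumulus and granulosa cell markers 5 reached 1 FPKM in some library (summed FPKM 25.01 to 33.0 in controls and 10.8 to 20.2 with triclocarban), and Has2, Ptx3, Foxl2, Amh, Inhba, Inha and Hsd3b1 stayed under 0.5. These markers moved both ways: Amhr2 (mean 21.4 to 1.23 FPKM) and Tnfaip6 fell, and Cyp19a1 (2.34 to 8.33 FPKM) and Fshr rose. Of 6 blood markers 3 reached 1 FPKM (59.7 to 98.4 and 8.44 to 33.1 FPKM, with Hbb-bs, Hbb-bt and Ptprc under 0.5), of 6 sperm markers 2 (1.12 to 5.90 and 7.23 to 10.4 FPKM, with Prm1, Tnp1, Tnp2 and Akap4 under 0.5) and of 5 fibroblast markers 0. The part of these marker and mitochondrial differences in the results below was not tested.

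With triclocarban, transcripts of 4 of the 5 tested BH3-only genes, of the effector gene Bok and of several mitochondrial death factors fell, as did the protective genes Mcl1 and Xiap. The initiator caspase gene Casp8, the apoptosome gene Apaf1 and the protective genes Bcl2l10 and Birc3 rose. Of the 38 genes, 29 passed the filter, which asked for 1 FPKM or more in 4 or more of the 8 libraries. Among them 4 rose and 13 fell, and 12 did not pass the threshold (limma on log2(FPKM + 1), Benjamini-Hochberg adjusted p under 0.05 over the 12941 genes tested). Over all genes tested, 11.3% rose and 30.8% fell, together 42.1%. Set against this, the 4 of 29 that rose (13.8%) are a share near the background. The 13 of 29 that fell (44.8%) are a larger share than the background on this scale, but were near it under other scalings (27.6%, given below), so the count is no result about these genes. Genes that pass the filter only through their higher group had to differ, and Bad, among the falling BH3-only genes, was such a gene. These counts thus describe the genes that passed and not all 38. The median change was -0.45 over the 29 members and -0.19 over all genes tested, which puts the members at -0.26 relative to all genes.

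On the side that promotes apoptosis, 2 of 17 tested genes rose and 10 fell, with a median change of -0.89. On the protective side, 2 of 9 tested genes rose and 2 fell, with a median of -0.24. Of the remaining 3 tested genes, Bcl2l13 fell. Over all genes tested, 11.3% rose and 30.8% fell, and the difference between the sides was not tested. The split depended on the scaling: with median-of-ratios scaling, and likewise with quantile normalization, 6 members rose (20.7%) and 8 fell (27.6%), while the median change of all genes moved from -0.19 to 0.06 and 0.14. Over all genes tested, 20.4% rose and 24.6% fell with median-of-ratios scaling, and 22.5% rose and 22.0% fell with quantile normalization, so the members' shares were near the background under both. In either case 3 pro-apoptotic genes rose and 7 fell, and 3 protective genes rose and 1 fell. The lowest treated library exceeded the highest control in 4 of the 29 tested members (13.8%, against 10.2% of all genes tested), the same 4 that rose. The highest treated library was below the lowest control in 12 of 29 (41.4%, against 30.0% of all genes tested), which are the genes that fell other than Cycs.

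**Figure D1:**
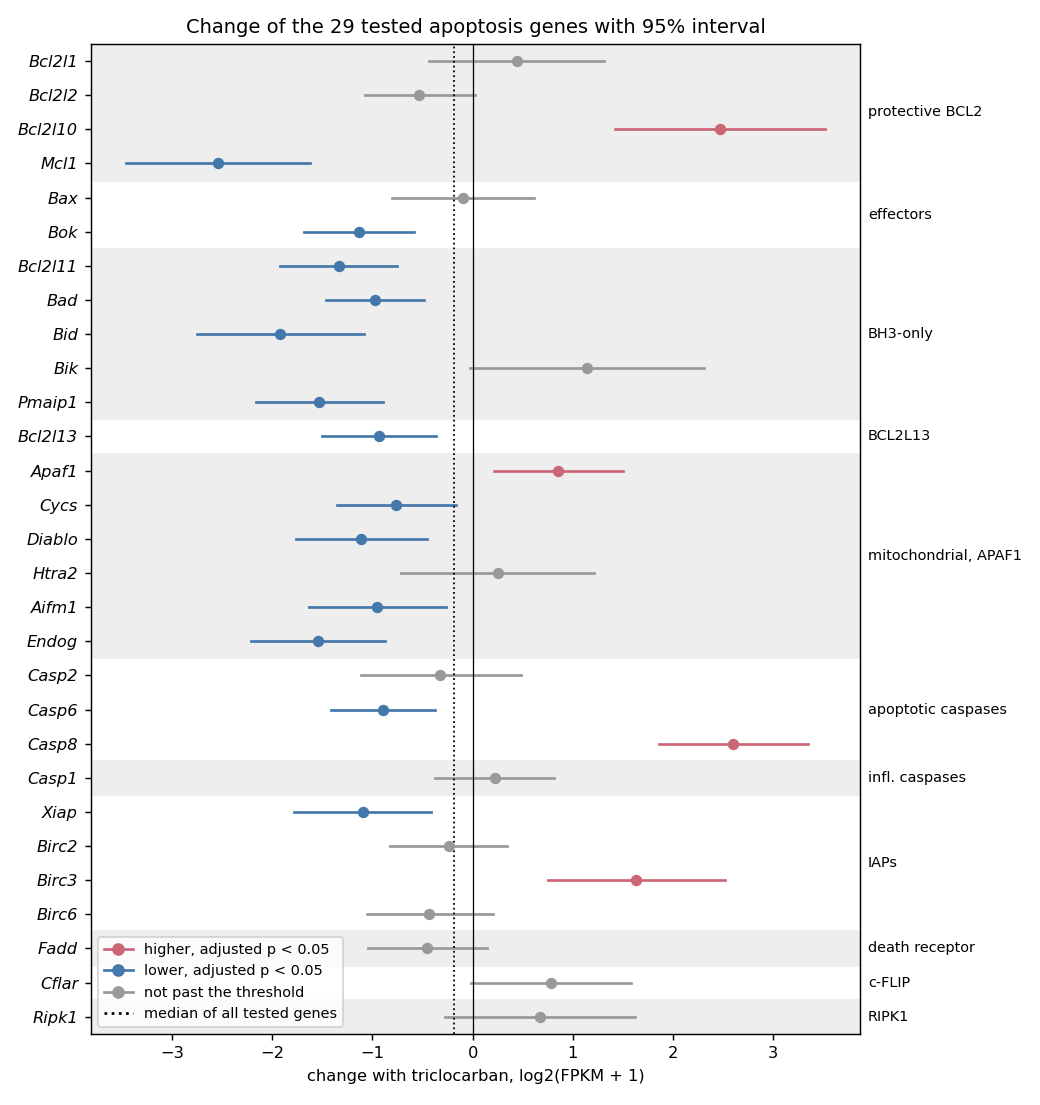
Change with triclocarban of the 29 tested apoptosis genes, in units of log2(FPKM + 1), ordered by role. Points are limma estimates from 4 control and 4 treated libraries, bars their 95% intervals, and the dotted line the median of all genes tested (-0.19). Casp8, Bcl2l10, Birc3 and Apaf1 lie to the right of 0, while 4 of the 5 tested BH3-only genes lie to the left with intervals that do not reach 0. Of these BH3-only genes, Bad passed the filter only through the controls.

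The stretches before the transcription start are shown for members at both ends of the range, to set their sequences beside the changes. Chosen after their values were seen, they are the top 2 risers and the top 2 fallers by size of change among called members with a single start in the RefSeq table (build GRCm38.p6), in which 33 of the 38 genes matched. Bcl2l10, Pmaip1, Bik, Htra2 and Tnfrsf10b did not match. Each line holds the 250 bases upstream of the start, 5′ to 3′, and capitals mark CG dinucleotides. The Casp8 window is chr1:58802252-58802501 on the plus strand, that of Birc3 chr9:7873171-7873420 on the minus strand, that of Mcl1 chr3:95658471-95658720 on the plus strand and that of Bid chr6:120916825-120917074 on the minus strand.
Casp8: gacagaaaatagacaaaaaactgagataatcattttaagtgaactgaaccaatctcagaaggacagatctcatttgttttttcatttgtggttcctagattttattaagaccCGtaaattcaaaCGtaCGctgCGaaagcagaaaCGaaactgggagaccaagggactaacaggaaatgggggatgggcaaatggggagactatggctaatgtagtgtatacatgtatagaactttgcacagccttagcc
Birc3: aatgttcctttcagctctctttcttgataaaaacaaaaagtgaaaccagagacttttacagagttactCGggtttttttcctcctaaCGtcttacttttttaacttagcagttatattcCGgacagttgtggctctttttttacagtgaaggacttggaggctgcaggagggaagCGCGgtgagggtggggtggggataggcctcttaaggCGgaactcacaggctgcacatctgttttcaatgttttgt
Mcl1: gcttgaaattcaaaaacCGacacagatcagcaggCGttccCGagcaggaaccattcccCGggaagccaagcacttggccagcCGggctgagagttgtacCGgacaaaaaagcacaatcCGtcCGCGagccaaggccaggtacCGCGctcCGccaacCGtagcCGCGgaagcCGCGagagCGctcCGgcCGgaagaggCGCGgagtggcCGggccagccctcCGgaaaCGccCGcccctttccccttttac
Bid: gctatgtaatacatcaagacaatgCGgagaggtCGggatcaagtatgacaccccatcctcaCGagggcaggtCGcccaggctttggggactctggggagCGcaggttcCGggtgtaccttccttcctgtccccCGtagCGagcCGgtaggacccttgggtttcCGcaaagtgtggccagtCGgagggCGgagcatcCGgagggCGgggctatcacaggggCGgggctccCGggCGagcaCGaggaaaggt

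The windows of the rising genes Casp8 and Birc3 held 5 and 6 CG dinucleotides, and those of the falling genes Mcl1 and Bid held 26 and 18. Over all 32851 promoter windows of this length outside chromosome 18 the median was 6, with quartiles of 2 and 16. The third rising gene with a window, Apaf1, held 42, the most of any member, so the rising genes did not share a low CG content. The 16 windows of the 12 matched genes that fell ran from 1 to 30 with a median of 18.5. The GC box GGGCGG, searched on both strands, was in 12 of these 16 windows, in 1 of 3 windows of the rising genes (Apaf1) and in 32.7% of all windows. It was also in 8 of 14 windows of members not past the threshold and in 7 of 12 windows of members below the filter. Their median CG counts were 15.5 and 16, near the 18.5 of the genes that fell. The CCAAT motif, also on both strands, was in 7 of the 16, in 1 of the 3 (Casp8) and in 33.8% of all windows. TATAAA on both strands was in 1 of the 16 (a start of Xiap), in none of the 3 and in 12.4% of all. The palindrome CACGTG was in none of these 19 windows and in 6.02% of all. Windows of 1 gene are not independent, and the annotation gives Casp8 other starts farther upstream.

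Among the protective BCL2 genes, Bcl2l10 rose and Mcl1 fell. Bcl2l10 encodes the BCL2 relative known for its high level in oocytes (ENSMUSG00000032191.5, chromosome 9, 75347758 to 75351632, plus strand, GRCm38). It was at 932, 954, 228 and 246 FPKM in controls 1 to 4 and 2679, 2039, 2899.95 and 3001 FPKM in triclocarban libraries 1 to 4. Every treated library lay above every control, and controls 3 and 4 were the lowest. The means were 590.10 ± 408 in controls and 2655 ± 432 FPKM with triclocarban (SD, n = 4 each), a change of 2.47 on the log2(FPKM + 1) scale (SE 0.48, limma adjusted p = 0.00174). Mcl1, a short-lived protective protein needed by the early embryo (ENSMUSG00000038612.9, chromosome 3, 95658788 to 95663176, plus strand, GRCm38), took the opposite course. Its transcript was at 11.9, 20.99, 42.9 and 49.5 FPKM in controls 1 to 4 and 2.34, 5.38, 3.84 and 4.34 FPKM in triclocarban libraries 1 to 4. Here every treated library lay below every control, and controls 3 and 4 were the highest. The change was -2.54 on the log2(FPKM + 1) scale (SE 0.42, limma adjusted p = 0.000679), the deepest among the members.

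The other protective BCL2 genes did not pass the threshold. Bcl2l1, the gene of BCL-XL, was at 56.2, 51.4, 18.99 and 20.8 FPKM in controls 1 to 4 and 37.5, 71.9, 37.4 and 39.8 FPKM in triclocarban libraries 1 to 4. Triclocarban library 2 was the highest of all 8 and controls 3 and 4 the lowest, and the groups overlapped. Its change was 0.44 (limma adjusted p = 0.403), with a 95% interval of -0.43 to 1.31. Leaving out controls 1 and 2 gave 1.13 (limma adjusted p = 0.0159), and leaving out controls 3 and 4 gave -0.26. Bcl2l2, the gene of BCL-W, was at 1.47 ± 0.64 in controls and 0.7 ± 0.37 FPKM with triclocarban (SD, n = 4 each), a change of -0.53 (limma adjusted p = 0.111). It shares exons with the same-strand gene Gm20521, listed at 21.2 FPKM in controls and 1.96 FPKM with triclocarban, and reads of the pair cannot be told apart here. Past the threshold were the values without triclocarban library 2 (limma adjusted p = 0.0471), without control 1 (0.0389) and without controls 1 and 2 (0.0252). Bcl2 itself, the founding member, did not exceed 0.0918 FPKM in any library.

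Bcl2l10 made up most of the protective BCL2 transcripts, per length. Controls 1 to 4 had 93.1, 92.8, 78.1 and 77.4% of the summed FPKM of the 5 genes in Bcl2l10, against 98.5, 96.3, 98.6 and 98.5% in triclocarban libraries 1 to 4. Without it, the other protective BCL2 genes summed to 68.9, 73.8, 64.1 and 71.9 FPKM in controls 1 to 4. With triclocarban that sum was 40.2, 78.6, 41.9 and 44.7 FPKM. Library 2, where Bcl2l1 was high, lay above the controls and the other 3 below them. The make-up of this remainder differed too: Mcl1 exceeded Bcl2l1 in controls 3 and 4, whereas Bcl2l1 exceeded Mcl1 in controls 1 and 2 and in all 4 treated libraries.

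Of the effectors, which open the outer mitochondrial membrane, Bok fell and Bax did not pass the threshold. Bok was at 2.42, 3.53, 1.62 and 2.47 FPKM in controls 1 to 4 and 0.316, 0.434, 1.24 and 0.439 FPKM in triclocarban libraries 1 to 4. All treated libraries lay below all controls, though every value was low. Of the treated libraries only library 3 reached 1 FPKM, so Bok needed the controls to pass the filter. With no filter its limma adjusted p was 0.0183. The change was -1.13 on the log2(FPKM + 1) scale (SE 0.25, limma adjusted p = 0.0038). Bax was at 7.48 ± 1.31 in controls and 7.37 ± 3.1 FPKM with triclocarban (SD, n = 4 each), and its change of -0.10 (limma adjusted p = 0.84) had a 95% interval of -0.80 to 0.61. Under median-of-ratios scaling its value was 0.17 and under quantile normalization 0.31. Bak1 was listed at 0 in 7 libraries and at 0.0320 FPKM in control 3, so Bax held most of the effector FPKM in every library.

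BH3-only genes, which carry stress signals to the BCL2 proteins, fell in 4 of 5 tested members: Bid, Pmaip1, Bcl2l11 and Bad. Bid, whose protein links death receptors to mitochondria once it is cleaved (ENSMUSG00000004446.6, chromosome 6, 120891930 to 120916853, minus strand, GRCm38), was at 9.05, 7.02, 16.96 and 10.1 FPKM in controls 1 to 4 and 4.47, 0.652, 1.71 and 2.24 FPKM in triclocarban libraries 1 to 4. It had the deepest fall of the group, -1.92 on the log2(FPKM + 1) scale (SE 0.38, limma adjusted p = 0.00203), and the groups did not overlap. The exons of Bid overlap those of Bcl2l13 on the opposite strand, and whether strand was used in counting is not given in the sources used here. Pmaip1, the gene of NOXA, which binds MCL1, was at 6.97, 6.21, 2.75 and 6.53 FPKM in controls 1 to 4 and 0.901, 1.14, 1.1 and 1.77 FPKM in triclocarban libraries 1 to 4. Control 3 was the lowest control and still lay above every treated library, with a change of -1.53 on the log2(FPKM + 1) scale (SE 0.29, limma adjusted p = 0.00148). Bcl2l11, the gene of BIM, which engages all main protective BCL2 proteins, was at 16.02, 20.2, 12.3 and 10.7 FPKM in controls 1 to 4 and 5.2, 6.28, 4.39 and 4.82 FPKM in triclocarban libraries 1 to 4. The treated libraries were close to each other and all below the controls, with a change of -1.33 on the log2(FPKM + 1) scale (SE 0.27, limma adjusted p = 0.00216). Bad, whose activity is held back by phosphorylation, was at 2.04 ± 0.62 in controls and 0.53 ± 0.18 FPKM with triclocarban (SD, n = 4 each), a change of -0.97 (limma adjusted p = 0.00473), and its exons overlap Gpr137 on the opposite strand. Bad reached 1 FPKM in the 4 controls and in no treated library, so it passed the filter only through its higher group, and without it 3 of 4 tested BH3-only genes fell. With no filter its limma adjusted p was 0.0183.

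Bik stood apart from the other BH3-only genes. Its protein acts at the endoplasmic reticulum, and its transcript was at 19.5, 15.97, 4.83 and 5.05 FPKM in controls 1 to 4 and 27.9, 7.82, 29.5 and 36.3 FPKM in triclocarban libraries 1 to 4. Triclocarban libraries 1, 3 and 4 lay above all controls, and library 2 lay between the pairs of controls. Over all 8 libraries the change was 1.14 (limma adjusted p = 0.107), with a 95% interval of -0.03 to 2.31. It passed without triclocarban library 2 (1.61, limma adjusted p = 0.02), without control 1 (1.46, 0.0431), without controls 1 and 2 (1.97, 0.0153), with median-of-ratios scaling (1.43, 0.0364) and with quantile normalization (1.46, 0.034). Bmf, Hrk and Bbc3, the gene of PUMA, were below the filter. Bbc3 was listed at 0 in all treated libraries and at up to 0.495 FPKM in controls, Hrk reached at most 0.252 FPKM, and Bmf was at 0.9 ± 0.41 in controls and 0.29 ± 0.13 FPKM with triclocarban (SD, n = 4 each). Leaving out Bik, the BH3-only genes summed to 34.8, 36.7, 36.3 and 29.9 FPKM in controls 1 to 4 and to 11.6, 9.4, 7.7 and 9.5 FPKM in triclocarban libraries 1 to 4. Unlike Bcl2l10 or Mcl1, this sum did not part the pairs of controls. With Bik included the sums were 54.3, 52.7, 41.2 and 34.9 FPKM against 39.5, 17.2, 37.2 and 45.8 FPKM, and the groups overlapped.

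Bcl2l13, a BCL2-like protein of the outer mitochondrial membrane with a known role in mitophagy, was at 13.3 ± 2.82 in controls and 6.48 ± 1.31 FPKM with triclocarban (SD, n = 4 each). It fell, with a change of -0.93 (limma adjusted p = 0.0135), and it missed the threshold under median-of-ratios scaling (limma adjusted p = 0.0814), quantile normalization (0.143) and without controls 3 and 4 (0.0849).

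**Figure D2:**
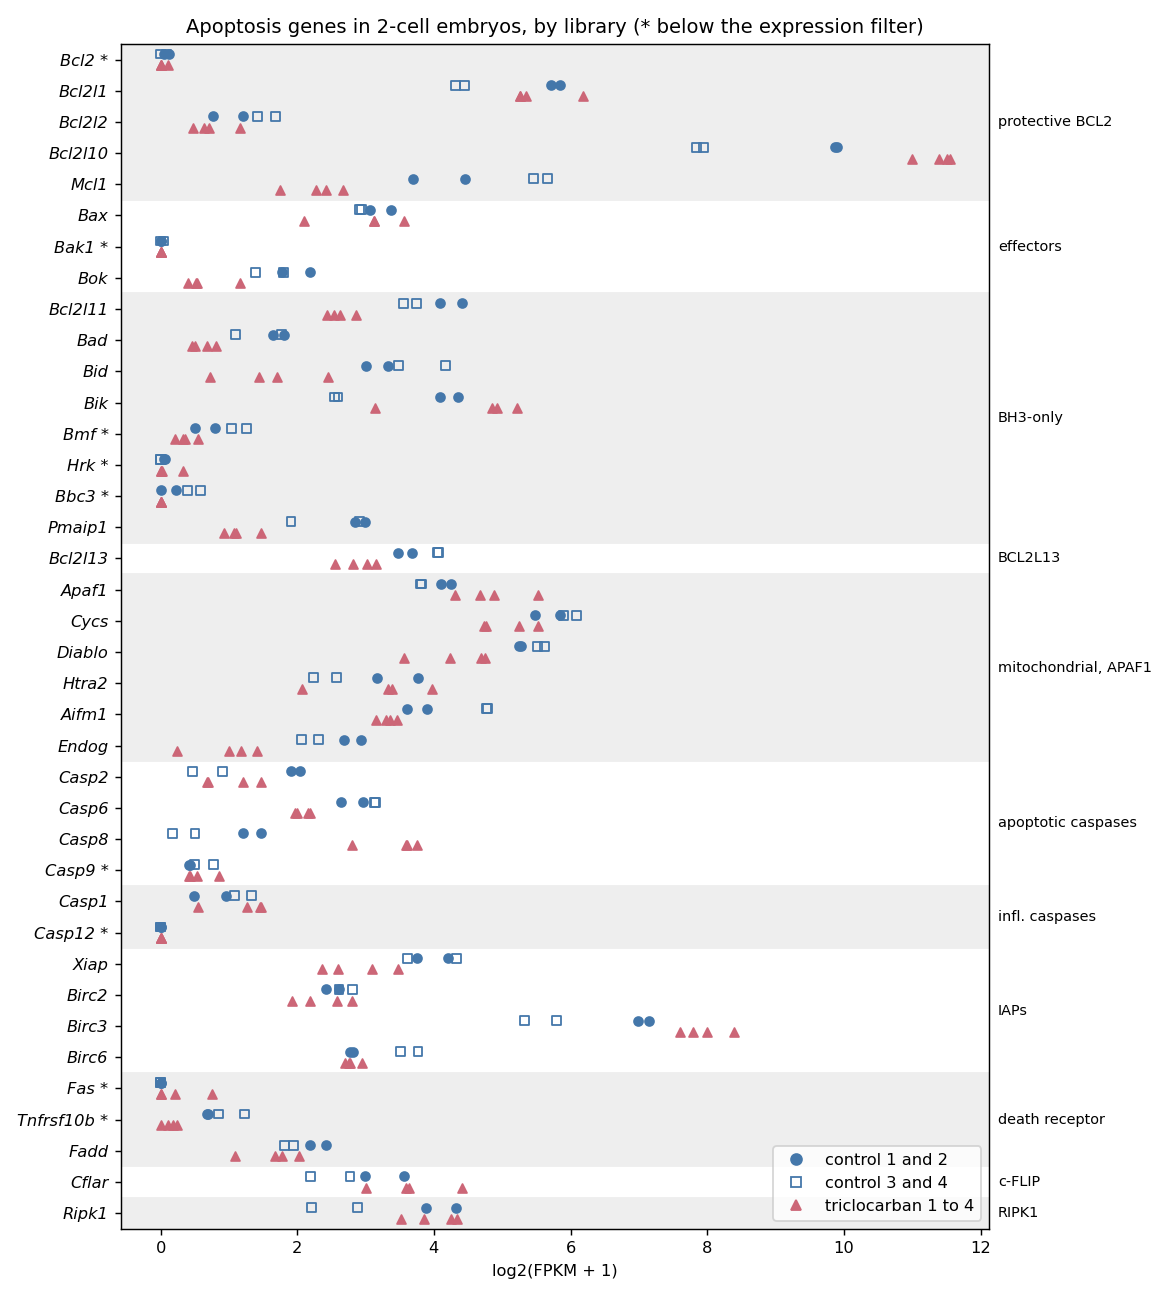
log2(FPKM + 1) of all 38 genes in each library, ordered by role. Filled circles are controls 1 and 2, open squares controls 3 and 4, and triangles the 4 triclocarban libraries; a star marks the 9 genes below the filter. Bcl2l10 is the highest protective gene in every library and Birc3 the next in all but control 3, where Mcl1 lies above it, and for both Bcl2l10 and Birc3 controls 1 and 2 lie between the other controls and the treated libraries.

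Genes of the proteins that mitochondria release, and of the apoptosome, fell in 4 of 6 members and rose in 1. Endog encodes endonuclease G, which cuts DNA independently of caspases, and was at 6.64, 5.43, 3.97 and 3.19 FPKM in controls 1 to 4 and 1.67, 0.185, 0.999 and 1.26 FPKM in triclocarban libraries 1 to 4. All treated libraries lay below all controls, with a change of -1.54 on the log2(FPKM + 1) scale (SE 0.31, limma adjusted p = 0.002). Of the treated libraries only 1 and 4 reached 1 FPKM, so Endog needed the controls to pass the filter. With no filter its limma adjusted p was 0.0113. Its exons overlap Spout1 on the opposite strand, which was listed at 13.9 FPKM in controls and 3.12 FPKM with triclocarban. Diablo, whose protein SMAC binds and neutralizes IAPs, was at 37.6, 36.9, 48.1 and 44.6 FPKM in controls 1 to 4 and 25.9, 10.8, 24.7 and 17.8 FPKM in triclocarban libraries 1 to 4. Again the groups did not overlap, and the change was -1.11 on the log2(FPKM + 1) scale (SE 0.30, limma adjusted p = 0.0112), with a limma adjusted p of 0.078 without controls 3 and 4.

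Aifm1, the gene of apoptosis-inducing factor, was at 11.2, 13.9, 26.3 and 26.5 FPKM in controls 1 to 4 and 7.87, 10, 9.29 and 8.83 FPKM in triclocarban libraries 1 to 4. Controls 3 and 4 were well above controls 1 and 2, which lay just above the highest treated library. The change of -0.95 (limma adjusted p = 0.0289) was -0.44 without controls 3 and 4 (limma adjusted p = 0.217). It missed the threshold in 9 of 18 alternatives. Among them were median-of-ratios scaling (limma adjusted p = 0.138) and quantile normalization (0.192). So were the fits without triclocarban library 1, 3 or 4 or control 3 or 4 (limma adjusted p from 0.061 to 0.0891). Cycs, the gene of cytochrome c, was the most abundant of this group at 56.3 ± 9.63 in controls and 33.4 ± 9.36 FPKM with triclocarban (SD, n = 4 each). Triclocarban library 4 lay above control 1, and the change of -0.76 (limma adjusted p = 0.0403) missed the threshold in 10 of 18 alternatives. Among them were median-of-ratios scaling (limma adjusted p = 0.212), quantile normalization (0.12) and leaving out controls 3 and 4 (0.182). So were the fits without triclocarban library 1, 2 or 3 or control 2, 3 or 4 (limma adjusted p from 0.0606 to 0.112). The annotation holds 2 named Cycs pseudogenes, and how reads shared with such copies were counted is not given in the sources used here.

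Apaf1, the scaffold of the apoptosome (ENSMUSG00000019979.6, chromosome 10, 90989311 to 91082770, minus strand, GRCm38), rose. It was at 18.04, 16.2, 13.1 and 12.9 FPKM in controls 1 to 4 and 45.1, 28.4, 18.8 and 24.4 FPKM in triclocarban libraries 1 to 4. All treated libraries lay above all controls, with library 1 the highest. The change was 0.85 on the log2(FPKM + 1) scale (SE 0.29, limma adjusted p = 0.0363), and it missed the threshold in 7 of 18 alternatives, with limma adjusted p-values of 0.11 without triclocarban library 1, 0.062 without library 4, 0.0548, 0.0874 and 0.0906 without controls 2, 3 and 4 in turn, 0.188 without controls 3 and 4 together and 0.0596 with no filter. Htra2, a mitochondrial protease that also binds IAPs, was at 7.32 ± 3.96 in controls and 9.1 ± 4.7 FPKM with triclocarban (SD, n = 4 each), a change of 0.25 (limma adjusted p = 0.674) with a 95% interval of -0.71 to 1.21.

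Of the apoptotic caspases among the 38 genes, Casp8 rose and Casp6 fell. Casp8, the initiator caspase of the death receptor route (ENSMUSG00000026029.8, chromosome 1, 58795374 to 58847503, plus strand, GRCm38), was at 1.76, 1.31, 0.417 and 0.129 FPKM in controls 1 to 4 and 11.2, 6.00, 11.1 and 12.4 FPKM in triclocarban libraries 1 to 4. The controls all lay below the treated libraries, of which library 2 was the lowest. Of the controls only 1 and 2 reached 1 FPKM, so Casp8 needed the treated libraries to pass the filter. The means were 0.9 ± 0.76 in controls and 10.2 ± 2.85 FPKM with triclocarban (SD, n = 4 each), a change of 2.60 on the log2(FPKM + 1) scale (SE 0.34, limma adjusted p = 0.000182). Over all 8 libraries and on this scale it was the largest rise among the members. Casp8 passed the threshold in all 18 alternatives, at 2.10 without controls 3 and 4 and 3.10 without controls 1 and 2. Bcl2l10 rose more than Casp8 without controls 1 and 2 (3.46) and with a pseudocount of 5 (2.46 against 1.35). Casp6, an executioner caspase that cleaves nuclear lamins, was at 5.21, 6.82, 7.73 and 7.81 FPKM in controls 1 to 4 and 3.46, 2.99, 3.53 and 2.91 FPKM in triclocarban libraries 1 to 4. Every treated library lay below every control, with a change of -0.89 on the log2(FPKM + 1) scale (SE 0.24, limma adjusted p = 0.0103). It missed the threshold under median-of-ratios scaling (limma adjusted p = 0.0559), under quantile normalization (0.131) and, at 0.0505, without controls 3 and 4.

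Casp2, an initiator caspase that is known to act in oocyte death, was at 3.1, 2.75, 0.376 and 0.876 FPKM in controls 1 to 4 and 1.77, 0.596, 1.31 and 0.617 FPKM in triclocarban libraries 1 to 4. Controls 1 and 2 were the highest of the 8 libraries and control 3 the lowest, and the groups overlapped. Its change of -0.32 (limma adjusted p = 0.515) was -0.96 without controls 3 and 4 (limma adjusted p = 0.0346) and 0.33 without controls 1 and 2. Casp9, the caspase of the apoptosome, was below the filter at 0.45 ± 0.18 in controls and 0.48 ± 0.22 FPKM with triclocarban (SD, n = 4 each), and its exons overlap Cela2a and Ctrc on the opposite strand. Of the inflammatory caspases, Casp1 was at 0.99 ± 0.47 in controls and 1.34 ± 0.61 FPKM with triclocarban (SD, n = 4 each), a change of 0.22 (limma adjusted p = 0.546), and Casp12 was listed at 0 in all 8 libraries. The order of the 4 apoptotic caspases among the 38 genes therefore differed between the groups. Casp6 had the highest FPKM of these 4 in every control, and Casp8 had it in every treated library. Apoptotic caspases outside the 38 genes are not part of this order. In the summed FPKM of Casp2, Casp6, Casp8 and Casp9, Casp8 held 16.9, 11.7, 4.7 and 1.4% in controls 1 to 4 and 66.3, 57.8, 68.1 and 76.3% in triclocarban libraries 1 to 4.

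Among the IAP genes, Birc3 rose and Xiap fell. Birc3 encodes cIAP2, a ubiquitin ligase of death receptor signalling (ENSMUSG00000032000.10, chromosome 9, 7848699 to 7873186, minus strand, GRCm38), and was at 140.49, 126, 39.2 and 54.5 FPKM in controls 1 to 4 and 336, 193, 254 and 222 FPKM in triclocarban libraries 1 to 4. All treated libraries lay above all controls, and controls 3 and 4 were the lowest. The change was 1.63 on the log2(FPKM + 1) scale (SE 0.40, limma adjusted p = 0.00715), and it was 0.88 (limma adjusted p = 0.0424) without controls 3 and 4 and 2.38 (0.000284) without controls 1 and 2. Xiap, the IAP that inhibits caspases directly, was at 17.5, 12.5, 19.1 and 11.2 FPKM in controls 1 to 4 and 4.15, 10.1, 7.5 and 5.04 FPKM in triclocarban libraries 1 to 4. The treated libraries all lay below the controls, with a change of -1.09 on the log2(FPKM + 1) scale (SE 0.31, limma adjusted p = 0.0145). Under median-of-ratios scaling its limma adjusted p was 0.0562 and under quantile normalization 0.0973, both above 0.05.

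Birc2, the gene of cIAP1 and a neighbour of Birc3, was at 5.15 ± 0.68 in controls and 4.32 ± 1.42 FPKM with triclocarban (SD, n = 4 each), a change of -0.24 (limma adjusted p = 0.495) with a 95% interval of -0.82 to 0.34. It was 0.01 with median-of-ratios scaling and 0.17 with quantile normalization. Birc6, a giant ubiquitin ligase that restrains caspases, was at 8.72 ± 3.34 in controls and 5.94 ± 0.53 FPKM with triclocarban (SD, n = 4 each), a change of -0.43 (limma adjusted p = 0.258). Controls 3 and 4 were the highest of the 8 libraries: the change was -0.85 (limma adjusted p = 0.0155) when controls 1 and 2 were left out, and quantile normalization gave 0.01. Birc3 held 83.5, 84.2, 51.0 and 67.1% of the summed FPKM of the 4 IAP genes in controls 1 to 4 and 95.8, 89.4, 93.9 and 94.2% in triclocarban libraries 1 to 4.

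In the death receptor route, the receptor genes Fas and Tnfrsf10b were barely detected. The tested members Fadd, Cflar and Ripk1 did not pass the threshold over all 8 libraries. Fas was listed at 0 in every control and in triclocarban libraries 1 and 2, and at 0.682 and 0.160 FPKM in libraries 3 and 4. Tnfrsf10b, the receptor of TRAIL, was at 0.593, 0.622, 1.35 and 0.8 FPKM in controls 1 to 4 and 0.179, 0, 0.074 and 0.134 FPKM in triclocarban libraries 1 to 4. It was below the filter, although its groups did not overlap, and with no filter its change was -0.73 (limma adjusted p = 0.00834). Fadd, the adaptor that recruits caspase-8, was at 3.31 ± 0.81 in controls and 2.2 ± 0.81 FPKM with triclocarban (SD, n = 4 each), a change of -0.45 (limma adjusted p = 0.202) with a 95% interval of -1.04 to 0.14. Its exons overlap the antisense gene Faddos, listed at 1.85 FPKM in controls and 0.05 FPKM with triclocarban.

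Cflar, the gene of c-FLIP, which blocks caspase-8 at the receptor and lies near Casp8 on chromosome 1, was at 10.9, 6.95, 3.57 and 5.83 FPKM in controls 1 to 4 and 11.4, 20.3, 11.04 and 7.07 FPKM in triclocarban libraries 1 to 4. Triclocarban library 2 was the highest and controls 3 and 4 the lowest, and the groups overlapped. Its change was 0.78 (limma adjusted p = 0.107). The threshold was passed without control 1 (limma adjusted p = 0.0411), without controls 1 and 2 (0.0331), with median-of-ratios scaling (0.0304) and with quantile normalization (0.0217). Ripk1, a kinase that turns receptor signals towards survival or death, was at 19.02, 13.7, 3.61 and 6.35 FPKM in controls 1 to 4 and 19.3, 17.9, 10.5 and 13.5 FPKM in triclocarban libraries 1 to 4. Only controls 3 and 4 fell outside the range of the treated libraries on the low side, and the change of 0.67 (limma adjusted p = 0.237) was 1.45 (limma adjusted p = 0.00635) without controls 1 and 2 and -0.11 without controls 3 and 4.

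The pro- and anti-apoptotic genes were set against each other as the mean log2(FPKM + 1) of the 17 tested pro-apoptotic genes minus that of the 9 tested protective ones. It came to -1.23, -1.26, -1.28 and -1.32 in controls 1 to 4 and -1.50, -2.54, -1.64 and -1.56 in triclocarban libraries 1 to 4. The controls lay close together and all 4 treated libraries lay below them. Both means did part the pairs of controls: the pro-apoptotic mean was 3.24 and 3.23 in controls 1 and 2 and 2.91 and 2.88 in controls 3 and 4, and the protective mean was 4.48 and 4.49 against 4.19 and 4.20. Controls averaged -1.28 ± 0.04 and treated libraries -1.81 ± 0.49 (SD, n = 4 each), a difference of -0.53. Library 2 lay far below the other treated libraries, and without it the difference was -0.29. The protective mean was 4.34 ± 0.17 in controls and 4.39 ± 0.21 with triclocarban, while the pro-apoptotic mean was 3.06 ± 0.20 and 2.59 ± 0.29 (SD, n = 4 each). No test is given for these scores, since the genes were chosen with results of these data known.

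**Figure D3:**
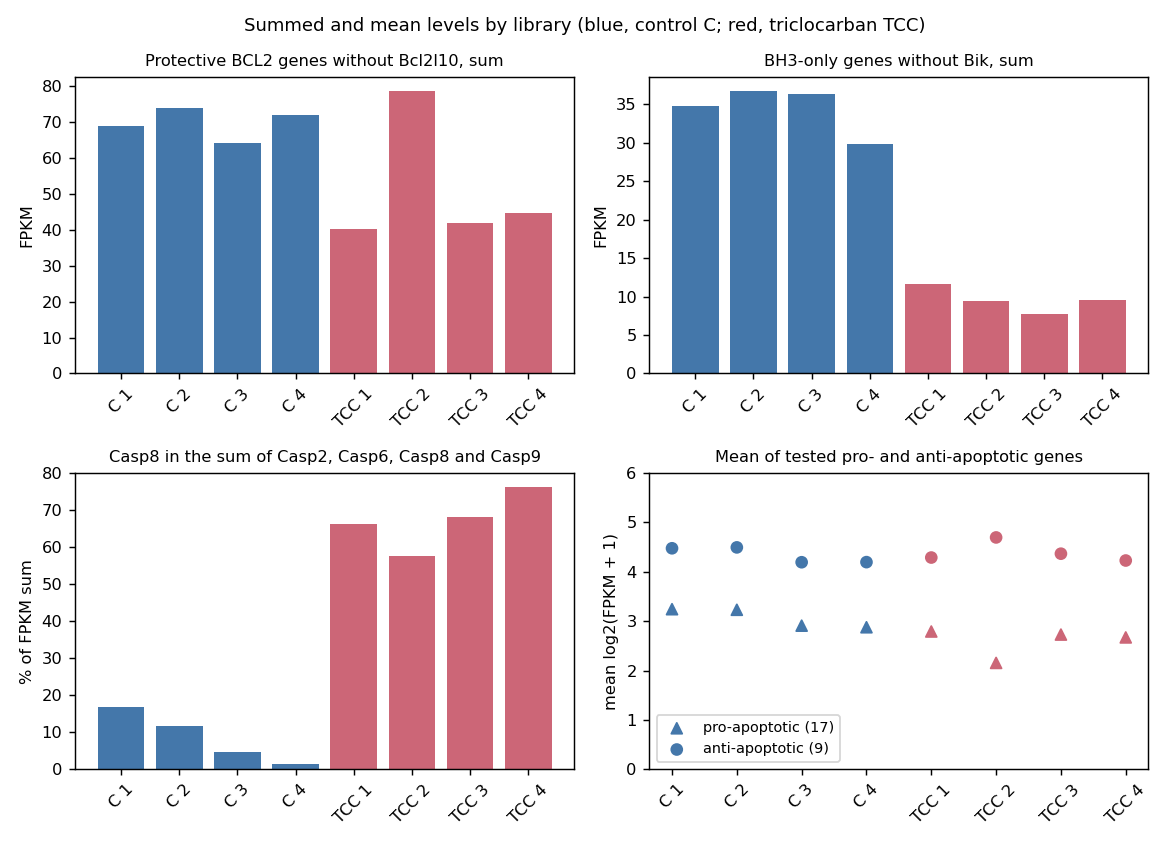
Levels by library, controls in blue and triclocarban in red: summed FPKM of the protective BCL2 genes other than Bcl2l10, summed FPKM of the BH3-only genes other than Bik, the percentage of Casp8 in the summed FPKM of 4 apoptotic caspases, and the mean log2(FPKM + 1) of tested pro- and anti-apoptotic genes. Triclocarban library 2 has the highest protective BCL2 sum without Bcl2l10 (78.6 FPKM) and the lowest pro-apoptotic mean (2.15). With Bcl2l10 included, its sum was 2117.6 FPKM, the lowest of the treated libraries.

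Controls 1 and 2 lay between controls 3 and 4 and the treated libraries, by their mean log2(FPKM + 1), for 16 of the 29 tested members (55.2%), where 57.4% of all genes tested did so. All 4 rising members and 7 of the 13 falling members showed this order, together 64.7% of the called members against 80.9% of all called genes. The summed oocyte-derived markers had the order of the rising members. Their sum was 6248 and 5772 FPKM in controls 1 and 2, 2640 and 2708 in controls 3 and 4, and 7191 to 10794 with triclocarban. In every library Btg4 and Oosp1 were the highest of these markers, which did not all move alike. Ooep, Btg4, Nlrp5, Bmp15, Padi6 and Oosp1 rose and Zp3 fell (-1.14, limma adjusted p = 0.0123). Zp1, Zp2, Gdf9 and Mos did not pass the threshold. The part of these markers in the rises of the members was not tested. For the other 6 falling members (Bok, Bcl2l11, Bad, Pmaip1, Endog and Xiap) controls 1 and 2 were no nearer to the treated libraries than controls 3 and 4, and each of these fell against both pairs. Against controls 1 and 2 alone, 3 of 29 members rose (10.3%, against 5.37% of all genes tested) and 9 fell (31.0%, against 25.1%). Against controls 3 and 4 alone, 8 rose (27.6%, against 21.9%) and 15 fell (51.7%, against 32.6%). Bcl2l10, Birc3, Casp8, Mcl1, Bid, Bcl2l11, Pmaip1, Bad, Bok and Endog passed the threshold in the same direction under every alternative in which they were tested.

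**Figure D4:**
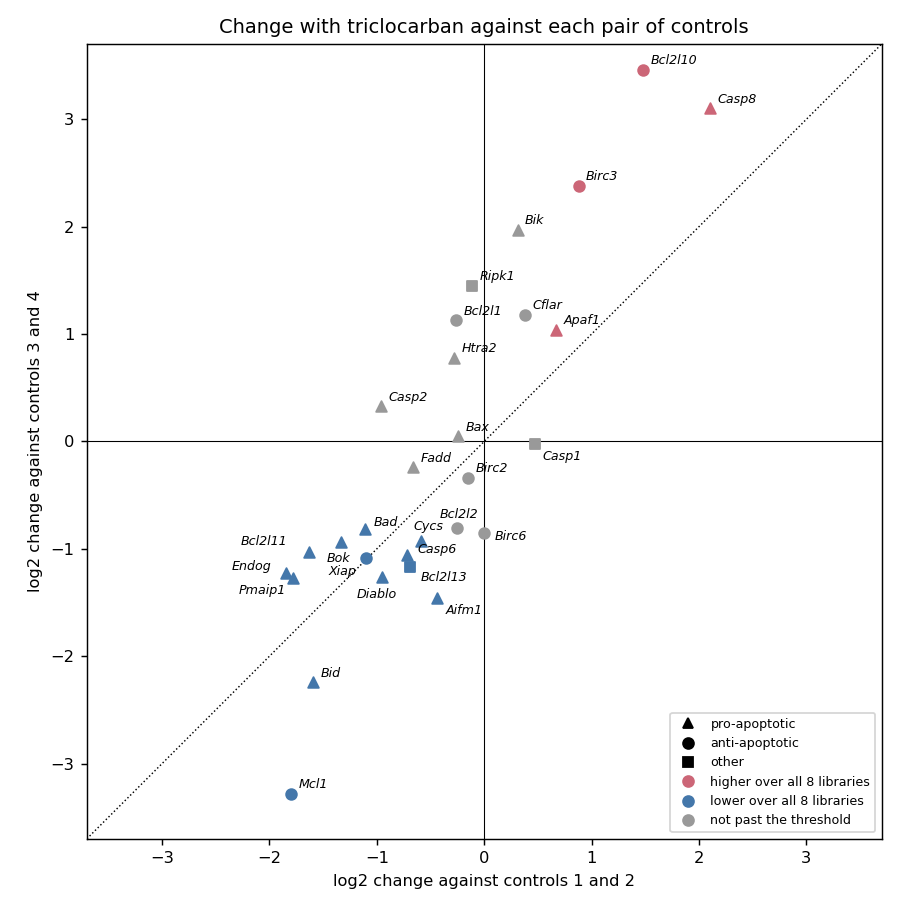
Change in log2(FPKM + 1) of the 29 tested members against controls 1 and 2 (horizontal) and against controls 3 and 4 (vertical), each from a fit that leaves out the other pair; the dotted line marks equal change. Mcl1 changed by -1.80 and -3.28 and Bcl2l10 by 1.48 and 3.46, whereas Bok, Bcl2l11, Bad, Pmaip1 and Endog lie above the line, with deeper falls against controls 1 and 2.

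A further 93 apoptosis genes of 5 lists were read from the same fit. Of these, 61 were tested, 9 rose, 17 fell and 35 did not pass the threshold, with a median change of 0 over the 61. The 14.8% that rose and 27.9% that fell are near the 11.3% and 30.8% of all genes tested, and the counts of the single lists, of 9 to 19 tested genes each, are a description only. Pidd1, Traf2 and Otulin, named below, reached 1 FPKM in the 4 controls and in no treated library, so they passed the filter only through their higher group. With no filter their limma adjusted p-values were 0.00252, 0.00033 and 0.00208. Among 10 tested caspases, caspase substrates and nucleases, 1 rose and 4 fell. Pidd1, which activates caspase-2 in a complex with CRADD, changed by -1.69 (limma adjusted p = 0.000257), and Dffa, the inhibitor of the caspase-activated DNase, by -1.83 (limma adjusted p = 0.000386). The rising gene was Cradd, at 0.99 (limma adjusted p = 0.0122), with a limma adjusted p of 0.109 without controls 3 and 4.

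Among 19 tested BCL2 relatives and BCL2-binding genes, 3 rose and 6 fell. Bag1, a BCL2-binding cochaperone, was at 56.5 ± 24.8 in controls and 6.16 ± 0.93 FPKM with triclocarban (SD, n = 4 each), a change of -2.91 (limma adjusted p = 8.7e-05). Bag3, a cochaperone of the same family, changed by -2.07 (limma adjusted p = 0.000609). Mtch2, the mitochondrial receptor of BID, changed by -1.72 (limma adjusted p = 0.000344), in the same direction as Bid. The channel gene Vdac3 rose by 1.33 (limma adjusted p = 0.0173), Bnip1 by 0.90 (limma adjusted p = 0.0411) and Bcl2l15 by 0.75 (limma adjusted p = 0.03), and Vdac3 missed the threshold in 7 and Bnip1 in 8 of 18 alternatives, Bcl2l15 in 7 of the 17 in which it was tested.

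In the p53 axis 1 of 11 tested genes rose and 4 fell. Aen, a p53-induced nuclease gene, changed by -1.99 (limma adjusted p = 0.000993), Trp53bp2, whose protein steers p53 towards pro-apoptotic targets, by -1.29 (limma adjusted p = 0.0025), and the cell cycle inhibitor gene Cdkn1a by -1.12 (limma adjusted p = 0.00701). Pdcd5 rose, at 1.12 (limma adjusted p = 0.00234). Pmaip1, described above, is also a known target of p53. Among 12 tested genes of death receptor and TNF signalling 2 rose and 2 fell. Traf2, the adaptor that brings cIAP proteins to TNF receptors, was at 8.88 ± 1.33 in controls and 0.55 ± 0.12 FPKM with triclocarban (SD, n = 4 each), a change of -2.67 (limma adjusted p = 3.45e-05). Otulin, which removes linear ubiquitin chains, changed by -1.76 (limma adjusted p = 0.000215). Dap3 rose, at 1.96 (limma adjusted p = 0.00167), and so did Tnfaip8, at 1.06 (limma adjusted p = 0.0409), which missed the threshold in 7 of 18 alternatives. Among 9 tested IAP genes and regulators 2 rose and 1 fell. Aven, an apoptosis inhibitor that binds APAF1 and BCL-XL, was at 53.9 ± 33.3 in controls and 150.40 ± 41.96 FPKM with triclocarban (SD, n = 4 each), a change of 1.64 (limma adjusted p = 0.0109) whose limma adjusted p was 0.0835 without controls 3 and 4. Birc5, the gene of survivin, rose by 0.80 (limma adjusted p = 0.0459), and Ube2z, a ubiquitin-conjugating enzyme gene, changed by -1.02 (limma adjusted p = 0.0323). Birc5 and Ube2z each missed the threshold in 10 of 18 alternatives.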

How the data were processed

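Polyadenylated RNA of 8 libraries of mouse 2-cell embryos was measured. The authors deposited a table of FPKM for 37310 genes. The submitters' processing notes list STAR, StringTie, featureCounts, DESeq2 1.30.1 and mm10 without saying what each did. Which annotation release was used, whether strand was counted and how multiply mapping reads were handled is not given in the sources used here. The labels' protocols describe both a library from total RNA and one from preamplified cDNA, and name no molecular identifiers. Columns were assigned by name to samples.

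Depth is unknown. With the annotated exon length, library sizes were scanned for the largest share of low values within 0.02 of whole fragments. That share was 8.8 to 10.8% per library. Chance gives 4% at 1 fixed size and more for the best of a scan. Whole fragments were thus not recovered, no count test was run and no counting interval is given. Symbols and coordinates came from GENCODE M21 (GRCm38, the assembly of mm10), which matched 32620 identifiers (87.4%) and 12295 of the genes tested (95.0%). Genes at 1 FPKM or more in 4 or more libraries were tested with limma 3.58.1 (eBayes with trend, treatment as the only term, 6 residual degrees of freedom, R 4.3.3) on log2(FPKM + 1), which understates changes of low genes, with Benjamini-Hochberg adjustment over 12941 genes. The step was tested on simulated data with independent libraries, which did not hold the split between the pairs of controls. The members, roles, lists and alternatives were chosen with earlier results of these data known. All members are named; of each other list, up to 3 genes per direction with the smallest adjusted p, except 1 gene that is not reported here. Python 3.11.15 with numpy 2.4.6, scipy 1.17.1 and pandas 2.3.3 made the tables. Alternatives were 2 other pseudocounts, 2 other filters, median-of-ratios and quantile scaling, a block for the replicate number, eBayes without trend, and leaving out each library or pair of controls.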

Additional observations from a re-analysis of the deposited data

Results flagged for a closer look

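In 58 groups of 4 libraries (29 tested members in controls and with triclocarban), 4 held a library whose distance from the nearest other exceeded Dixon's 95% critical value on the log2(FPKM + 1) scale. Chance flags about 1 in 20 such groups. For Bcl2l1, triclocarban library 2 was at 71.94 FPKM, where the other treated libraries were at 37.4 to 39.8. For Casp8, the same library was at 6.00 FPKM, where the others were at 11.1 to 12.5. For Bok, triclocarban library 3 was at 1.24 FPKM, where the others were at 0.316 to 0.439. For Pmaip1, control 3 was at 2.75 FPKM, where the other controls were at 6.21 to 6.97.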

How the results depend on the processing

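Of the 17 members that passed the threshold, 10 kept their direction and the threshold under all of the 17 or 18 alternatives in which they were tested, and none changed direction. The other 7 (Aifm1, Apaf1, Bcl2l13, Casp6, Cycs, Diablo and Xiap) each missed it in at least 1, in 35 cases in all. Members that rose numbered 8 without controls 1 and 2, and those that fell numbered 8 with median-of-ratios scaling and 8 with quantile normalization. Leaving out 1 library gave 3 to 6 that rose and 11 to 14 that fell. Over all genes, 1466 rose and 3981 fell. The number that rose was 2838 without controls 1 and 2, 695 without controls 3 and 4, 2637 with median-of-ratios scaling, 2915 with quantile normalization, 971 without control 3, 953 without control 4 and 953 to 1860 without any 1 library. The number that fell was 2487 with a mean of at least 5 FPKM, where fewer genes were tested, and 3469 to 4180 without any 1 library. The rest of these causes were not tested. The share of risen genes among those called was 26.9%, 45.3% with median-of-ratios scaling and 50.6% with quantile normalization. The difference of pro- and anti-apoptotic means ran from -0.64 to -0.29 without any 1 library and from -0.62 to -0.38 under the other settings. Members not past the threshold changed sign in 15 cases: Bax to 0.05 without controls 1 and 2, 0.17 with median-of-ratios scaling, 0.31 with quantile normalization, 0.20 without triclocarban library 2 and 0.01 without control 2; Casp2 to 0.33 without controls 1 and 2 and 0.04 with quantile normalization; Casp1 to -0.02 without controls 1 and 2. Without controls 3 and 4, Bcl2l1 was at -0.26, Htra2 at -0.28 and Ripk1 at -0.11, and leaving out 1 library gave Htra2 -0.01 (without triclocarban library 3) to 0.63 and Bax -0.29 to 0.20. Birc2 was at 0.01 and 0.17 with median-of-ratios scaling and quantile normalization, and Birc6 at 0.01 with the latter. Of 21 other apoptosis genes recomputed under each alternative, 13 kept their call and 0 changed sign. With the replicate number as a block, 4 members rose and 13 fell, the same numbers as without it, and 1544 and 4061 of all genes did; of the other named genes, Birc5 missed the threshold (limma adjusted p = 0.0723). Deviations of same-numbered libraries correlated at 0.338, 0.053, 0.095 and 0.104, not all above 0.1, and control 2 correlated best with triclocarban library 1, so the numbers were not taken as pairs. The unknown depth limits what can be said of genes under about 1 FPKM.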
